A study of Mus musculus with 4 samples.

Results

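Nes, Fabp7, Msi1, Gpm6b, Slc1a3, Zfp536, Pou3f2 and Gfap are 8 genes used as markers of neural progenitors, radial glia and astrocytes, and their mRNA was measured here in cultured mouse embryonic fibroblasts (MEFs) with and without the cyclins G1 and G2. They are 8 of the 31829 gene names on the arrays and have 12 of the 39429 probes. The genes were selected on values of these same arrays, so the differences between arrays that made them stand out are given as a description and were not tested. The MEFs came from mid-gestation embryos of C57BL/6J mice and were grown in DMEM with fetal bovine serum to logarithmic phase. There were 4 groups with 1 array each. The first pair is CycG2-/- (G2KO) and CycG2+/+ (WT, here G2WT). The second pair is CycG1-/-CycG2-/- (DKO) and CycG1+/+CycG2+/+ (WT, here DKOWT). The DKO mice descended from a cross of chimeric CycG1 knockout mice, which lack all protein-coding exons of Ccng1, with G2KO mice. Each group is 1 preparation of cells, so a difference between arrays holds the difference between the 2 preparations as well as that between the genotypes, and these cannot be told apart.

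Neural progenitors line the ventricles of the embryonic brain as neuroepithelial cells and then as radial glia, which give rise to neurons and later to astrocytes. They are known by intermediate filament proteins such as nestin, by the fatty acid carrier and the glutamate transporter of radial glia, and by regulators that keep them dividing. MEF cultures are made from a whole embryo body and are dominated by mesenchymal fibroblasts, so these genes mark cells that such cultures are not meant to hold, although some of them, nestin above all, are also used outside the nervous system.

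All 4 arrays were on 1 slide, and 65.0 to 72.2% of the probes were well above background. Levels are given as the spot's signal divided by the 75th percentile of its array, so a level of 1 is the signal at that percentile, and a level is compared only with that of the same probe on another array. A spot not called well above background is termed dim. For bright spots the scanning software gave an error of about 10.0% of the signal, or 0.20 on the log2 scale for a ratio, which covers the spot and not the cells. The SD of log2 ratios between the WT arrays, over 24197 probes well above background on all 4 arrays, was 1.01, and this serves as the spread between arrays of the same labelled genotype.

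The labels were checked on the targeted genes. Ccng1 was dim on the DKO array and at 1.66 on the DKOWT array, at least 228-fold lower. It was at 1.97 on the array labelled G2KO and 9.43 on the array labelled G2WT, 4.79-fold lower on the former. The DKOWT array was 5.69-fold lower than the array labelled G2WT. Ccng2 was well above background on every array, at 0.0907 on the array labelled G2KO, 0.104 on the array labelled G2WT, 0.0616 on the DKO array and 0.0804 on the DKOWT array. Its probe lies at base 2367 of the transcript, and whether the deletion removes that part was not determined, so it does not check the label. Xist, the RNA of the inactive X chromosome, was at 1.13 on the array labelled G2WT and dim on the other 3, while Ddx3y and Eif2s3y of the Y chromosome were dim there and at 0.872 or more elsewhere. The array labelled G2KO and the DKOWT array were the closest pair, with an SD of log2 ratios of 0.53. Directions below are those of the labels. The study's supplementary list gives the opposite direction in G2KO for Gpm6b, Zfp536 and Slc1a3, and likewise for Xist and for Sox2, En2, Foxa2, Sparcl1 and Pdgfra described below. The study states that Xist was higher in its G2KO MEFs because they were of female origin. Here the array with Xist was the one labelled G2WT. An exchange of the labels G2KO and G2WT was not tested as a cause.

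The probes decide what was measured, and they are shown because the genes with several probes gave unlike signals. The arrays carry 60-base probes placed on mm9 by the file annotation, of which 30 bases are shown, 5′ to 3′ in the sense of the transcript. Exon and UTR positions were not used here. For Zfp536 the capitals mark the 11 bases that its 2 probes share. The first of them was taken at chr7:38264282-38264311 and the second at chr7:38264301-38264330 of the minus strand, both in transcript NM_172385. The 3 Gfap probes lie on the minus strand at chr11:102748894-102748923 for variant 2, and at chr11:102751843-102751872 and chr11:102752756-102752785 for variant 1. The Msi1 probes lie on the plus strand at chr5:115904030-115904059 and chr5:115890516-115890545. The other genes have 1 probe each, at chr3:87784303-87784332 for Nes, chr10:57508039-57508068 for Fabp7 and chrX:162826765-162826794 for Gpm6b on the plus strand, and at chr15:8584266-8584295 for Slc1a3 and chr4:22414061-22414090 for Pou3f2 on the minus strand.
Zfp536, first probe: CAGACTTGTGTggtaagttttagaatcctc
Zfp536, second probe: tctggatgtatcaagaggcCAGACTTGTGT
Gfap, variant 2 probe: tttgaggaactgaaacgtgttgtgttcaag
Gfap, first variant 1 probe: ggttatattaacagagctagcctatgctaa
Gfap, second variant 1 probe: caaaaggctcacaatacaagttgtcccaat
Msi1, first probe: tgcctctctccctggtcgcttttatttatt
Msi1, second probe: gagcgaggacatcgtagagaaagtgtgtga
Nes: tcatcatctcagcctgctgagatcttgttt
Gpm6b: ctatcagtgccaagggcttcctgtagttct
Slc1a3: gtttacccggtgtgatattttttatactaa
Fabp7: tgaagcactggtcactaattataagtttgt
Pou3f2: aaggaggtggtgagagtttggttttgtaac

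The array labelled G2WT had the highest level of 6 of the 8 genes, by steps larger than the spread between the WT arrays for 4 of them. Nes, Gpm6b and Zfp536 were each more than 10-fold higher on the array labelled G2WT than on the other 3, and Fabp7 was highest there too, while Slc1a3 was dim on that array and on the DKO array. Msi1 and Gfap differed between arrays by less than the spread between the WT arrays, and Pou3f2 was at or near background throughout. A ratio is given where at least 1 of the 2 spots was well above background. Where the other was dim the ratio is a bound, taken against the higher of 2 values, the dim signal itself and the dimmest signal of that array still called well above background, and is written as at least or at most.

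In the G2KO comparison, 3 of the 7 genes with a ratio were more than 4-fold lower on the array labelled G2KO (Nes, Gpm6b and Zfp536) and 1 was more than 4-fold higher (Slc1a3). Of all 28278 probes compared there, 1.92% were lower and 3.58% higher by that much. In the DKO comparison, 1 of 6 genes was more than 4-fold lower (Slc1a3) and 0 were higher, where 3.99% and 3.94% of all probes were. Between the WT arrays, 4 of 7 genes were more than 4-fold lower on the DKOWT array (Nes, Fabp7, Gpm6b and Zfp536) and 1 was higher (Slc1a3), where 2.65% and 4.55% of all probes were. The genes were chosen for such differences, so these counts say nothing about the genes beyond the choice. The G2KO comparison and the comparison of the WT arrays share the array labelled G2WT.

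The median log2 ratio of the genes with a ratio was -1.73 in the G2KO comparison, -0.09 in the DKO comparison and -2.78 between the WT arrays, with bounds taken at their value. Over all probes the medians were -0.17, 0.02 and -0.08. Of these 3 medians the farthest from 0 was that between the WT arrays, which carry the same labelled genotype. The medians of the G2KO comparison and of the WT arrays are both the ratio of Fabp7, which is a bound between the WT arrays. The DKO median is over another set of genes, without Fabp7 and Zfp536 and with Pou3f2, so the medians are not strictly alike. Of the other pairs, the array labelled G2KO against the DKOWT array had 1 of 6 genes past 4-fold in either direction (2.18% of all probes), the DKO array against the array labelled G2WT had 4 of 7 (9.37%), and the DKO array against the array labelled G2KO had 1 of 7 (8.34%).

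**Figure D1:**
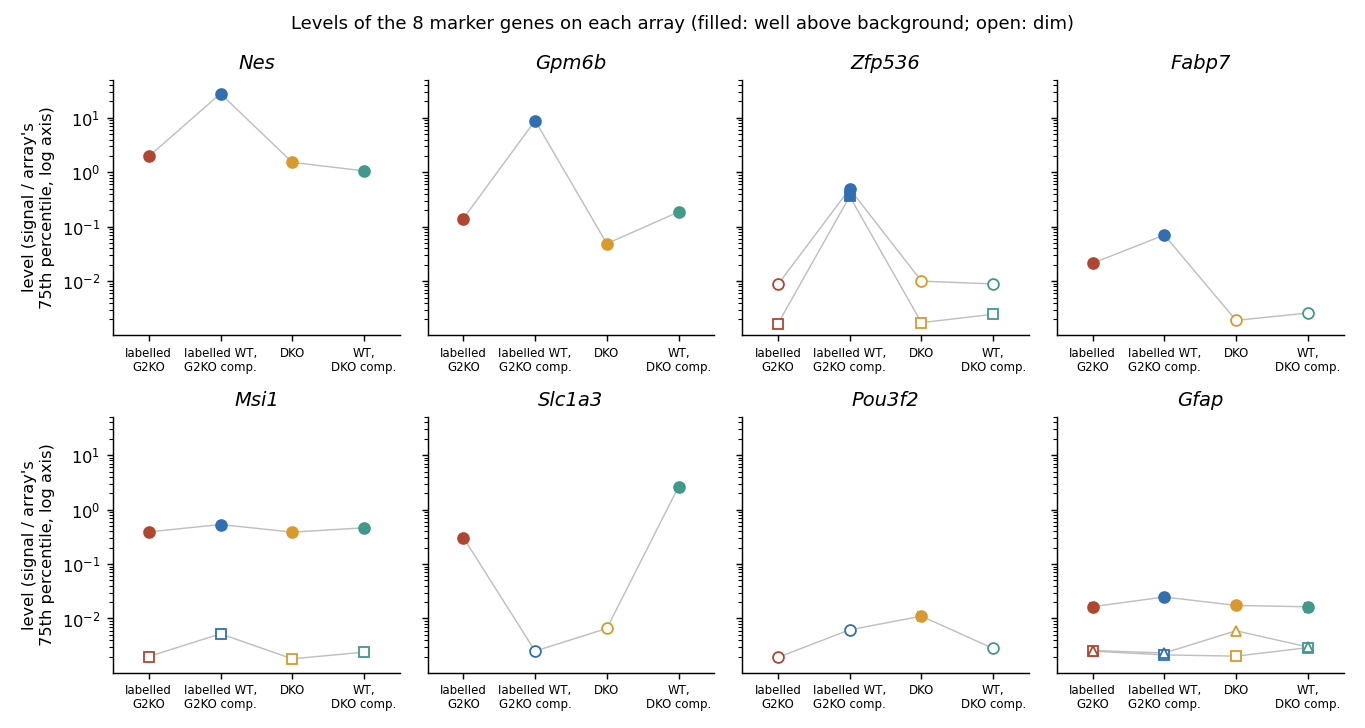
Levels of the 8 genes on the 4 arrays, as signal divided by the array's 75th percentile on a log axis, with 1 array per group and a marker shape for each probe of a gene. Filled symbols are well above background, open symbols are dim, and bars, mostly hidden by the symbols, are the software's spot error. Nes, Gpm6b and both Zfp536 probes peak on the array labelled G2WT, and Slc1a3 is filled only on the array labelled G2KO and the DKOWT array.

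Nes encodes nestin, the intermediate filament protein of dividing neural progenitors, which is also made in developing muscle and in new vessels. Its level was 1.96 on the array labelled G2KO, 27.9 on the array labelled G2WT, 1.52 on the DKO array and 1.06 on the DKOWT array. All 4 spots were well above background, and the array labelled G2WT stood alone at the top. The array labelled G2KO was 14.3-fold lower than the array labelled G2WT, a log2 ratio of -3.84. Only 116 of the 28278 probes compared were as far or farther below. The DKO array was 1.43-fold higher than the DKOWT array, a log2 ratio of 0.52 that is within the spread between the WT arrays. The DKOWT array was 26.3-fold lower than the array labelled G2WT. In the order of levels only the step from the array labelled G2WT to the next, 3.84 on the log2 scale, was larger than that spread.

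Gfap encodes the intermediate filament protein of mature astrocytes. Its variant 2 probe was at 0.0165 on the array labelled G2KO, 0.0248 on the array labelled G2WT, 0.0174 on the DKO array and 0.0164 on the DKOWT array. All 4 spots were well above background but close to it, with spot errors of 12.8 to 19.0%, and no step between arrays was larger than the spread between the WT arrays. The log2 ratios were -0.59 in the G2KO comparison and 0.08 in the DKO comparison. Both variant 1 probes were dim on every array, so the Gfap signal rests on the variant 2 probe alone.

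Fabp7 encodes the brain fatty acid binding protein, a marker of radial glia. Its level was 0.0213 on the array labelled G2KO and 0.0704 on the array labelled G2WT, and it was dim on the DKO and DKOWT arrays. Both arrays of the first pair were thus above both arrays of the second. In the G2KO comparison the array labelled G2KO was 3.31-fold lower, short of 4-fold. Against the same array labelled G2WT the DKOWT array was at least 6.89-fold lower. No ratio can be given for the DKO comparison. With normexp background correction the last of these log2 ratios, at most -2.78, became -1.24.

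Slc1a3 encodes GLAST, the glutamate transporter that radial glia and astrocytes carry. Its level was 0.306 on the array labelled G2KO and 2.64 on the DKOWT array, and it was dim on the array labelled G2WT and on the DKO array. It ran opposite to Nes and Gpm6b on the array labelled G2WT. On the array labelled G2KO its signal exceeded that of the array labelled G2WT by at least 42.8-fold, a log2 ratio of at least 5.42. The DKO array was at least 363-fold lower than the DKOWT array, a log2 ratio of at most -8.50. With normexp background correction the log2 ratios of these comparisons were 2.59 and -5.30. The WT arrays differed by at least 369-fold, a log2 ratio of at least 8.53 that became 5.53 with that correction, so the direction of this gene in a knockout depended on which WT array it was set against, and against the DKOWT array, the array labelled G2KO was 8.63-fold lower. The steps from the DKOWT array to the array labelled G2KO, 3.11 on the log2 scale, and from there to the dim arrays were both larger than the spread between the WT arrays.

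Gpm6b encodes a proteolipid membrane glycoprotein of neurons and glia. Its level was 0.141 on the array labelled G2KO, 8.90 on the array labelled G2WT, 0.0488 on the DKO array and 0.187 on the DKOWT array. All 4 spots were well above background, and the array labelled G2WT again stood alone. In the G2KO comparison the array labelled G2KO was 62.9-fold lower, a log2 ratio of -5.97. The DKO array was 3.83-fold lower than the DKOWT array, just short of the threshold, and was past it without scaling, at a log2 ratio of -2.01. The DKOWT array was 47.7-fold lower than the array labelled G2WT, and the array labelled G2KO and the DKOWT array differed by 1.32-fold, within the spread. Gpm6b lies on the X chromosome, and the array labelled G2WT is also the array where Xist was measured. The part of the sex of the embryos in its level was not tested.

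Msi1 encodes musashi, an RNA-binding protein of neural stem cells. Its first probe was at 0.390 on the array labelled G2KO, 0.532 on the array labelled G2WT, 0.386 on the DKO array and 0.463 on the DKOWT array. The 4 levels lay within 0.46 of each other on the log2 scale, and no step was larger than the spread between the WT arrays. The log2 ratios were -0.45 in the G2KO comparison and -0.26 in the DKO comparison. Its second probe, at base 536 of the same transcript where the first starts at base 1369, was dim on all 4 arrays, so the probes disagree on whether Msi1 was above background.

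Zfp536 encodes a zinc finger protein known to restrain neuronal differentiation. Its first probe was at 0.496 on the array labelled G2WT and its second at 0.360, and both were dim on the other 3 arrays. The probes share only the bases shown in capitals above and gave the same pattern. The array labelled G2KO was lower than the array labelled G2WT by at least 56.9-fold with the first probe and at least 54.8-fold with the second. The DKOWT array was at least 48.5-fold and 35.3-fold lower. With normexp background correction the log2 ratios of the first probe, at most -5.83 in the G2KO comparison and at most -5.60 between the WT arrays, became -3.67 and -3.32. No ratio can be given for the DKO comparison, in which both spots were dim.

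Pou3f2 encodes BRN2, a POU-domain transcription factor of neural progenitors and neurons. It was dim on the arrays labelled G2KO and G2WT and on the DKOWT array, and on the DKO array it was just above background, at 0.0110. The DKO array was at least 1.08-fold higher than the DKOWT array, a bound that allows no statement on the size of the difference. No ratio can be given for the G2KO comparison or between the WT arrays.

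**Figure D2:**
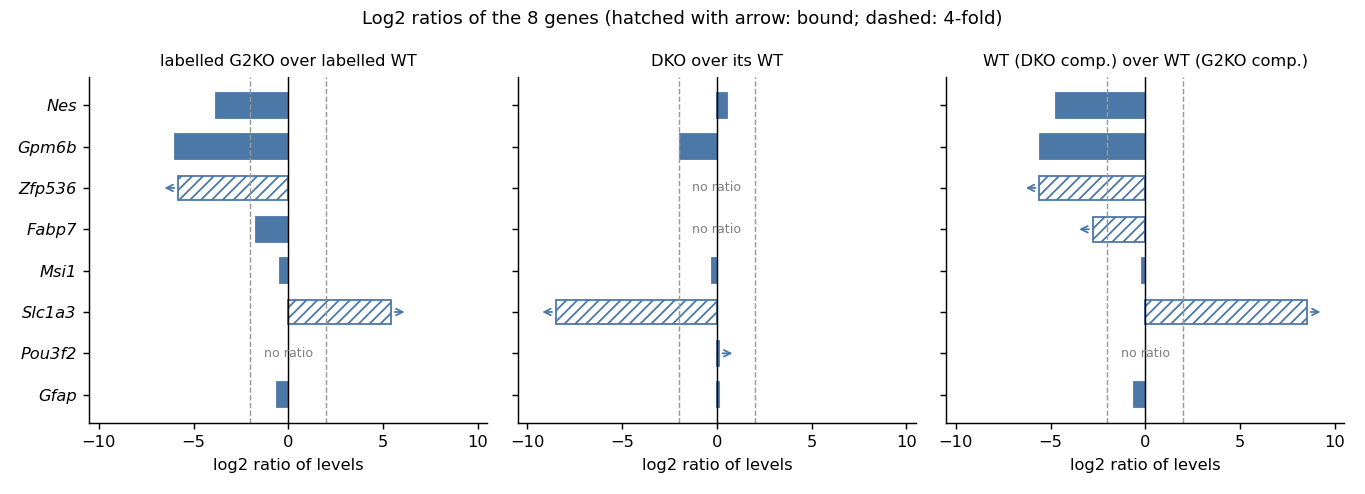
Log2 ratios of the 8 genes for the array labelled G2KO over the array labelled G2WT, the DKO array over the DKOWT array, and the DKOWT array over the array labelled G2WT. Solid bars are measured, hatched bars with an arrow are bounds, and dashed lines mark 4-fold. Nes, Gpm6b and Zfp536 lie left of the line in the first and last panels, and Slc1a3 changes side between the first and the middle panel.

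The stretches before the transcription starts are shown for the 5 genes that differed past 4-fold between any 2 arrays. They are the 250 bases upstream of the RefSeq start on GRCm38.p6, a build other than that of the probes, and 7 of the 8 genes matched an entry. Capitals mark the SOX core ACAAT or its complement ATTGT and the TATA box TATAAA or its complement TTTATA, which do not overlap here. The motifs were searched on both strands, with the POU octamer ATGCAAAT as the third. Nes lies at chr3:87970843-87971092, plus strand, Gpm6b at chrX:166238693-166238942, plus strand, Zfp536 at chr7:37769753-37770002, minus strand, Fabp7 at chr10:57784673-57784922, plus strand and Slc1a3 at chr15:8710808-8711057, minus strand.
Nes: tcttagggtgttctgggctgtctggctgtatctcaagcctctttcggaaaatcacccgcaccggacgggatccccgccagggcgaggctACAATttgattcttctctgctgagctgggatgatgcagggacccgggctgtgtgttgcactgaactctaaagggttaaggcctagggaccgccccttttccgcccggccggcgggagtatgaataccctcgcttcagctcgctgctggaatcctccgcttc
Gpm6b: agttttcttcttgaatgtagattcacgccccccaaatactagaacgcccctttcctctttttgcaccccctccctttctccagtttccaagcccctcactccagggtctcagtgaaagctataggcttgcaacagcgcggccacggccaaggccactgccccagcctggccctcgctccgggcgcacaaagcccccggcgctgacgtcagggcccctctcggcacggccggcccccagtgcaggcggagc
Zfp536: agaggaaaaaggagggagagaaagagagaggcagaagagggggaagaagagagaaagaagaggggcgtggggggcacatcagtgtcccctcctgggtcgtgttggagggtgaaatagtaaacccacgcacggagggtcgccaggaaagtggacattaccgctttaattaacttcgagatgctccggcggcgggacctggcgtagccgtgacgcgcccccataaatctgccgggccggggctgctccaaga
Fabp7: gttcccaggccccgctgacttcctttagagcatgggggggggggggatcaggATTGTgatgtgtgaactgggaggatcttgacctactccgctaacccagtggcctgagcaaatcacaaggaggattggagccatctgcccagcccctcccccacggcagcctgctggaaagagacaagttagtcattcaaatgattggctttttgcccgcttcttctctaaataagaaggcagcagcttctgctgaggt
Slc1a3: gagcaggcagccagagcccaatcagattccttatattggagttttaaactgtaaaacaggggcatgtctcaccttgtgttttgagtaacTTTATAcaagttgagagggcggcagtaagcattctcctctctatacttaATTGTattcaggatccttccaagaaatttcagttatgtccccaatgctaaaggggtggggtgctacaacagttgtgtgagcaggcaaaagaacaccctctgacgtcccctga

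The SOX core occurred once each in the windows of Nes, Fabp7 and Slc1a3 and was not found in those of Gpm6b, Zfp536, Pou3f2 and Gfap, so 3 of 7 windows held it, where 27.7% of all 32851 windows of that length did. The POU octamer was in none of the 7, and in 1.60% of all windows. The letters of the TATA box were in that of Slc1a3 alone, as the complement TTTATA, and in 12.4% of all. A match on either strand and anywhere in the window was counted, so it need not be a working TATA box. The GC content ran from 44.8% for Slc1a3 to 66.8% for Pou3f2, with a median of 52.4% over all windows. None of the 3 motifs was in all of the windows of Nes, Gpm6b and Zfp536.

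Other genes of neural progenitors differed in both directions. Of 27 listed genes, 23 had a ratio in the G2KO comparison, of which 4 were more than 4-fold lower, 2 more than 4-fold higher and 17 neither, with a median log2 ratio of -0.34. Sox2, a core transcription factor of neural stem cells, was at 2.37 on the array labelled G2WT and dim on the other 3, a log2 ratio of at most -8.49. Lhx2, a regulator of forebrain progenitors, had a log2 ratio of -3.92, Nkx6-1, a ventral patterning factor, of -2.25, and Cdh2, the N-cadherin of the neuroepithelium and of fibroblasts, of -2.09. On the other side were Ptprz1, a receptor phosphatase of radial glia, at 6.38 and Sox9, which is also a gene of cartilage and mesenchyme, at 4.24. Pax6, Sox3, Hes5, Nr2e1 and Zic2, which define much of the dorsal and early neuroepithelium, were dim on the array labelled G2WT, where Nes was highest.

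In the DKO comparison, 4 of the 19 listed progenitor genes with a ratio were more than 4-fold lower, 2 were higher and 13 neither, with a median of -0.26. Among those lower, the log2 ratios were -6.43 for Ptprz1, -5.46 for Id4, an inhibitor of differentiation, and -2.64 for Sox9. Lhx2 was higher, by at least 7.50, and Hopx, an atypical homeodomain protein, by 3.48. Ptprz1 and Sox9 thus took the direction of Slc1a3 in both comparisons. Between the WT arrays, 3 of 21 were higher, 3 lower and 15 neither.

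Of 18 other genes of astrocytes and radial glia, 15 had a ratio in each comparison. In the G2KO comparison, 2 were more than 4-fold higher, namely Sparcl1, a secreted matrix protein, at a log2 ratio of 6.34 and Ndrg2 at 2.19, with 0 lower and a median of -0.09. In the DKO comparison, Aldh1l1, a folate enzyme of astrocytes, was higher at 2.33, Sparcl1 at -6.46 and Tnc, the matrix protein tenascin C, at -3.39 were lower, and the median was 0.24. Between the WT arrays Sparcl1 alone was past 4-fold, at 7.91. Aqp4, the astrocyte water channel, lay between 0.0681 and 0.0913 on all 4 arrays. Gjb6, an astrocyte connexin, was dim on all 4, and S100b was well above background on the DKOWT array alone.

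Genes of later neural lineages were also mixed. Of 13 oligodendrocyte lineage genes, 9 had a ratio in the G2KO comparison and 1 was past 4-fold, Cspg4, the NG2 proteoglycan of oligodendrocyte precursors and of pericytes, at a log2 ratio of 3.59. It was lower on the DKO array, at -7.72, with Mbp, a myelin protein, at -2.35. The WT arrays differed past 4-fold at these 2 genes as well, with 0 lower on the DKOWT array. There Cspg4 was higher at 3.08 and Mbp at 2.58. Olig1 and Olig2, the defining factors of that lineage, were dim on every array. Of 19 neuron genes on the arrays, 12 had a ratio in the G2KO comparison and 3 were higher, namely Tubb3, neuronal tubulin, by 8.60-fold, Stmn2, a tubulin-binding protein of growing axons, by at least 25.6-fold and Slc17a6, a vesicular glutamate transporter, by 5.26-fold. The same 3 genes were lower on the DKO array, by 4.49-fold, at least 27.3-fold and at least 5.15-fold. The WT arrays differed past 4-fold at 1 of 11 neuron genes, Stmn2, at least 27.8-fold higher on the DKOWT array. Tubb3 was 3.99-fold higher there, just short of the threshold. Neurod1, Isl1, Gad1 and Nefm were dim on all 4 arrays.

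Among neural crest and Schwann cell genes, 1 of 7 with a ratio was past 4-fold in the G2KO comparison, Pax3 at a log2 ratio of 3.15, and 0 in the DKO comparison. Pax3 is a paired-domain factor of neural crest and of muscle precursors. Among genes that pattern the midbrain, hindbrain and floor plate, 3 of 10 were lower on the array labelled G2KO and 0 higher, with a median of -1.01. En2, the engrailed factor of the midbrain and hindbrain, was at 14.7 on the array labelled G2WT and 0.0423 or less elsewhere, a log2 ratio of -9.15. Foxa2, the floor plate and endoderm factor, had a ratio of at most -8.55 in the G2KO comparison and of at least 8.45 in the DKO comparison, and En1 of -2.38 and at most -2.58. Egr2, a hindbrain and Schwann cell factor, was lower on the DKO array at -3.23. Shh and Lmx1a were dim on every array.

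**Figure D3:**
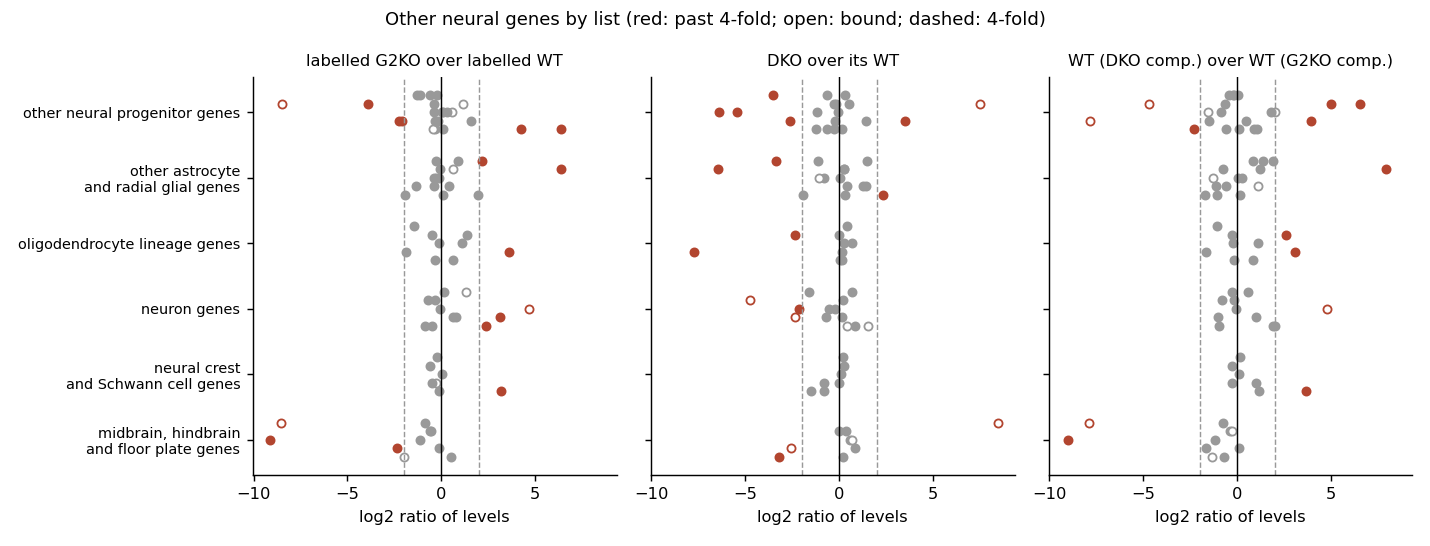
Log2 ratios of the other neural genes by list in the same 3 comparisons, 1 point per gene, with genes without a ratio left out. Red points are past 4-fold, open points are bounds and dashed lines mark 4-fold. Most points of every list lie within 4-fold, and the midbrain, hindbrain and floor plate list has its far points on the left in the first and last panels, where En2 and Foxa2 lie.

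Markers of other cells also differed between the arrays. Of 14 fibroblast markers, 14 were well above background on the arrays labelled G2KO, DKO and DKOWT, with summed levels of 467, 351 and 546. On the array labelled G2WT 11 were, with a sum of 335, and Pdgfra, Lum and Fap were dim. In the G2KO comparison 6 of the 14 were more than 4-fold higher, with log2 ratios of 6.85 for Thy1 and 4.26 for Postn. In the DKO comparison 5 were lower, with Postn at -7.54, and Dcn was higher at 4.05. The WT arrays differed at 8 of the 14, all higher on the DKOWT array, with Thy1 at 7.06 and Postn at 5.26. Of all probes, 3.58% were that much higher in the G2KO comparison and 3.99% lower in the DKO comparison. On the DKOWT array 4.55% were higher than on the array labelled G2WT. Of 12 mesothelial markers, 4 to 6 were well above background on the other 3 arrays, with sums of 0.730 to 1.63, and 12 were on the DKO array, with a sum of 150, of which Msln made up 99.8, and with Wt1 at a log2 ratio of at least 9.77. The part of these cell types in the levels of Nes, Gpm6b, Zfp536 and Slc1a3 was not tested. In RNA from a whole culture, fewer cells of a type and less RNA per cell cannot be told apart.

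Of the other lists, endothelial markers were well above background at 4 to 5 of 8 genes, with Tie1 and Emcn dim on every array, and sums of 3.12 to 4.47, nearly all of it Kdr at 2.99 to 4.35. Macrophage and microglia markers were so at 5 to 6 of 8, with Aif1 and Cx3cr1 dim on every array and sums of 12.3 to 23.2, most of it Itgam, which reached 22.2 on the DKOWT array. Smooth muscle markers summed to 221, 368, 47.7 and 269 on the arrays labelled G2KO, G2WT, DKO and DKOWT. Skeletal muscle progenitor markers summed to 0.0368 or less, with 0 to 3 of 5 well above background.

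The relatives of these genes showed which members of a family were measured in the same cells. Among 3 relatives of Pou3f2, Pou3f3 was at 0.396 on the array labelled G2WT and dim on the other 3, at most -5.91 on the log2 scale in the G2KO comparison, Pou3f1 lay between 0.113 and 0.128 on all 4, and Pou3f4 was dim on all 4. So among these POU3 genes only Pou3f3 was measured with the pattern of Zfp536 and Sox2. The only probe of Pou3f2 was dim on the array labelled G2WT, which does not show that its RNA was absent there. Gpm6a, the closest relative of Gpm6b and itself one of the mesothelial markers above, was at 1.42 on the DKO array and dim elsewhere, at least 7.12 on the log2 scale over the DKOWT array. Of 6 other SLC1 transporters, Slc1a5, a neutral amino acid transporter, was past 4-fold, higher on the array labelled G2KO at 3.90, and 0 were past 4-fold in the DKO comparison.

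Among 5 relatives of Fabp7, Fabp4, the adipocyte form, was higher on the array labelled G2KO at a log2 ratio of 4.09 and Fabp1, the liver form, was lower at -4.71 or less. In the DKO comparison Fabp3, the heart form, was lower at -2.99 and Fabp1 at -2.46 or less. Fabp5, the epidermal form, had log2 ratios of -0.15 and -1.72. Of 8 intermediate filament relatives of Nes and Gfap, 4 had a ratio in the G2KO comparison, 6 in the DKO comparison and 4 between the WT arrays. Of those with a ratio, 0 were past 4-fold. Vim, the filament protein of mesenchyme, had log2 ratios of -0.34 and -0.05 in the knockout comparisons, at levels of 55.2 to 69.9. Zfp516 and Msi2 each stayed within 0.65 on the log2 scale in both knockout comparisons.

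The arrays held other genes with the same profiles. Likeness was the distance between log2 levels over the 4 arrays, each gene centred on its own mean, among 3494 genes that varied by at least 2 on the log2 scale. For Zfp536 the nearest were Pou3f3 at a distance of 0.357, Sall1, a zinc finger gene of kidney and neural development, at 0.378, and Dmrta1 at 0.527. For Slc1a3 they were Chrdl1, a BMP antagonist, at 0.430, Rspo2, an activator of WNT signalling, at 0.988, and Fbn2, a fibrillin of connective tissue, at 1.03. Each of these 3 genes was highest on the DKOWT array, next on the array labelled G2KO and low or dim on the others.

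For Gpm6b the nearest were Akr1c19 at 0.896, Glipr1 at 1.14 and Dmrta1 at 1.30. For Fabp7 they were Opn3 at 0.248, Trim36 at 0.274 and Plk4, a centriole kinase, at 0.301. For Nes they were the unnamed loci 5730469M10Rik at 0.431, LOC100044660 at 0.528 and 4930509E16Rik at 0.698. Msi1, Pou3f2 and Gfap varied by less than 1 on the log2 scale, so the nearest of the genes searched, Frmd3, Atp4a and Try5, lay at 1.09, 0.955 and 1.02 and varied by more.

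**Figure D4:**
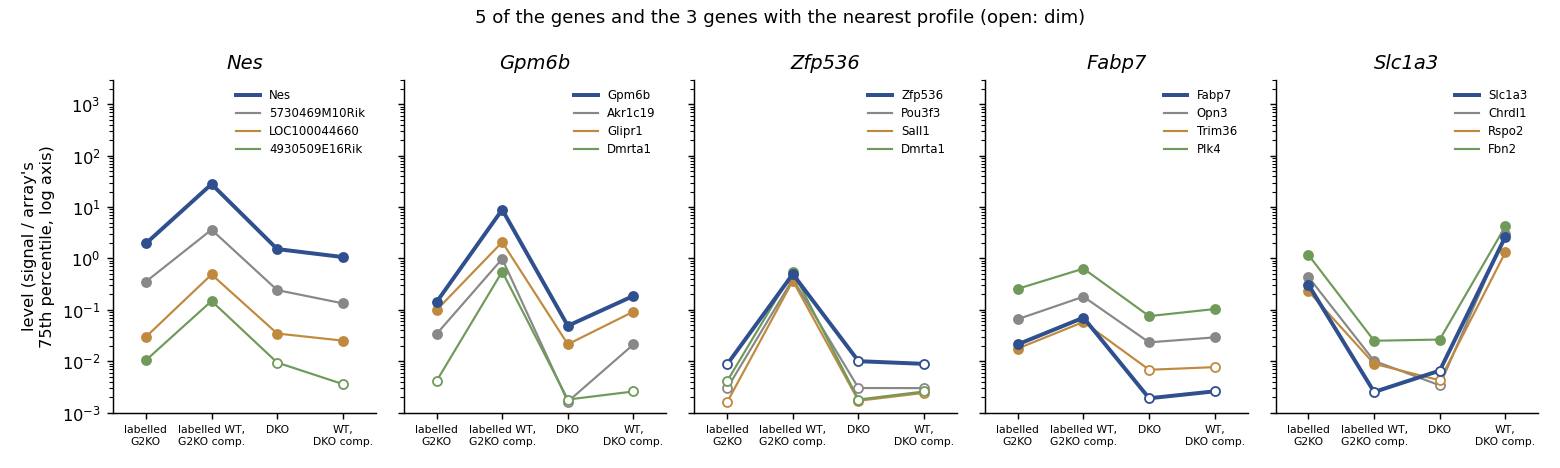
Levels of 5 of the genes (thick line) and of the 3 genes nearest in profile on the 4 arrays, on a log axis, with open symbols for dim spots. Pou3f3, Sall1 and Dmrta1 are filled only on the array labelled G2WT, as Zfp536 is, and Chrdl1, Rspo2 and Fbn2 are highest on the DKOWT array and next on the array labelled G2KO, as Slc1a3 is.

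Such profiles were uncommon over the arrays. The patterns counted were defined from the profiles of Nes, Gpm6b, Zfp536 and Slc1a3, so the shares are a description and not a test. Of 24495 genes well above background on at least 1 array, 198, or 0.808%, were past 4-fold over each other array on the array labelled G2WT, Nes, Gpm6b and Zfp536 among them, as were Sox2, En2 and Nkx6-1 of the lists. Of these, 69 were also dim on the other 3 arrays, among them Zfp536 and Sox2. The array labelled G2KO and the DKOWT array were each past 4-fold over both other arrays for 227 genes, or 0.927%. These held Slc1a3 with Ptprz1, Sparcl1, Cspg4 and Stmn2 of the neural lists and Pdgfra, Postn and Thy1 of the fibroblast markers. Slc1a3 thus shared its profile with listed fibroblast markers as well as with listed neural genes.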

How the data were processed

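Cy3-labelled cRNA from total RNA of the 4 MEF groups was put on 4 Agilent expression arrays of 1 slide, 1 array per group. The authors scanned the arrays and deposited Feature Extraction files, whose values are background-corrected intensities per spot. The submitters' processing notes name Agilent Feature Extraction 10.5.1.1 and the file headers name 10.7.3.1. The deposited value table held the same intensities, with a largest log2 difference of 0. The labels give single-color arrays for every sample, while the study's methods give dye swaps for the G2KO comparison.

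Control spots and outlier spots were left out. The processed intensity of each probe was divided by the 75th percentile of its array, and log2 ratios were taken between arrays with Python 3.11.15, numpy 2.4.6 and pandas 2.3.3. Background correction with limma 3.58.1 was an alternative. A spot that the software did not call well above background is termed dim, and its level was set no lower than the dimmest signal of its array still called well above background. A ratio with such a spot is a bound, and no ratio was taken where both spots were dim or where the bound pointed the wrong way. A gene with several probes was represented by the one whose log2 signal had the highest mean over the arrays. Called means past 4-fold. With 1 array per group there was no test and no p-value, and the ratio code was tested on simulated data. The number of arrays limits the precision. No column of per-sample values was left unmapped.

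The members and the gene lists were chosen with earlier results of these data known. The genes named are all members, Ccng1 and Ccng2, the listed genes past 4-fold or, where a list had none, up to 4 with the highest level, the 3 genes nearest in profile to each member, and a few sex-linked and cell type markers. A few listed genes that the rule would name are not reported here.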

Additional observations from a re-analysis of the deposited data

Results flagged for a closer look

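Slc1a3 went in opposite directions in the 2 comparisons of a knockout with its own WT. The log2 ratio was at least 5.42 for the array labelled G2KO over the array labelled G2WT, and at most -8.50 for the DKO array over the DKOWT array. If the labels G2KO and G2WT were exchanged, the first ratio would be at most -5.42 and Slc1a3 would be lower in both comparisons. Each direction rests on 1 array per group, and the difference between the 2 comparisons was not tested.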

How the results depend on the processing

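The alternatives were 9 ways of handling the signal, 2 other fold thresholds and 2 other choices of WT array, with the exchange of the G2KO and G2WT labels added after the data were seen. For single genes, 172 of 196 recomputed log2 ratios moved by less than the SD between the WT arrays. Many of these could not move, so the tally does not measure robustness. The unscaled value table repeats the values without scaling. Dropping the filter or requiring both spots well above background leaves every measured ratio unchanged. The median over a gene's probes leaves genes with 1 probe unchanged. The sign changed in 13, of which 2 had been past 4-fold. Setting the array labelled G2KO against DKOWT gave 0.88 for Nes and -3.11 for Slc1a3 on the log2 scale, and at least 1.06 for Fabp7. The other 10 were of Msi1, Gfap and the DKO comparison of Nes, which were within 4-fold as reported. Those of Msi1 were counted both without scaling and with the value table, which hold the same values. Use of the WT array of the other pair left 1 gene past 4-fold and a median of -0.12 for the array labelled G2KO, and gave 4 genes and a median of -3.27 for the DKO array against the array labelled G2WT. The mean of both WT arrays gave 2 genes and a median of -0.35 for the array labelled G2KO, and 3 genes and a median of -1.86 for the DKO array. Requiring both spots well above background, which leaves fewer genes, left 2 genes for the array labelled G2KO, 0 for the DKO array and 2 between the WT arrays. For the DKO array, 2 genes were past the threshold without scaling, with the value table and at 2-fold, Gpm6b being added to Slc1a3 each time. The share of all probes was not computed with the mean of both WT arrays, the stricter spot rule, no scaling or 2-fold. The counts of genes under those settings therefore cannot be set against the arrays as a whole. Normexp correction moved the median between the WT arrays to -1.24. Exchanged labels turn every sign of the G2KO comparison, whose median was then 1.73, and the WT arrays differed past 4-fold at 1 gene with a median of 0.12. The cause of these shifts was not tested.

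Probes near background limit what can be said of Pou3f2, Gfap and Fabp7.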
